A study of Rattus norvegicus with 9 samples.

Results

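Mthfs, the gene of methenyltetrahydrofolate synthetase, was followed in the dorsal hippocampus of rats with chronic epilepsy, as 1 transcript (ENSRNOT00000039850) of the 31786 counted. It is 1 of 10 genes of epigenetic pathways that the study paired with a transcript. It was selected on measured values of these same libraries, namely its higher level in PILO than in CTRL animals and its equally higher level in PILO+KD animals. Its levels and fold changes are therefore a description and carry no p-value.

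Methenyltetrahydrofolate synthetase uses ATP to turn formyltetrahydrofolate (folinic acid), a stored form of the vitamin, back into a folate that can carry single carbon units. These units feed the synthesis of purines and thymidylate and the return of homocysteine to methionine. Methionine in turn gives S-adenosylmethionine, the methyl donor for DNA and histone methylation, which is where folate metabolism meets the epigenetic genes.

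Poly-A RNA of 9 male Wistar rats was sequenced in 1 library per animal, with 3 animals in each of 3 groups, and all groups had methyl scopolamine to limit peripheral effects. CTRL rats were sham treated with saline and ate standard chow. PILO rats ate the same chow after a status epilepticus that was induced with pilocarpine, a muscarinic agonist (340 mg/kg), and stopped with diazepam (8 mg/kg) after 60 min. PILO+KD rats had the same induction and then a ketogenic diet, which is rich in fat and poor in carbohydrate. Tissue was taken after an observation period of 84 days. Some rats carried EEG electrodes and some may have needed a second, smaller dose of pilocarpine, but the labels do not say which. No group ate the ketogenic diet without pilocarpine, so the diet can be read only in epileptic animals.

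The stretch just before the Mthfs gene is shown because the study set expression beside DNA methylation, which in mammals falls mainly on CpG sites. It holds the 241 bases before the annotated gene start in RefSeq (build GRCr8, chr8:98609169-98609409, plus strand), and capitals mark the CpG sites.

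Mthfs upstream: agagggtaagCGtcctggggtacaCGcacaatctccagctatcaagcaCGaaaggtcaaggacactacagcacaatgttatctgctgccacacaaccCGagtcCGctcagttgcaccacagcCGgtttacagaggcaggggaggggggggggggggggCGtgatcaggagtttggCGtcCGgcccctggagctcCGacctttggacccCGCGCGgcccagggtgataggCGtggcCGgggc

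This window had 15 CpG sites and a GC content of 63.9%. Over 33469 rat promoter windows of the same length the median was 5 CpG sites and 51.5% GC, and 75.7% of the windows had fewer CpG sites than Mthfs. Each window was the first 241 bases of a listed promoter and was not placed against its own gene's annotated start. Most of the sites of Mthfs lie in the part nearest the gene, after a run of 16 G. Core promoter motifs were searched on both strands. The GC box GGGCGG was not found here, while 29.6% of the windows held it. The CCAAT box was also not found (33.2% of the windows), nor was the TATA box with the letters TATAAA (12.6%). Methylation of these sites was not analysed here, and the counts below were made on an older build, RN4.

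Mthfs was a weakly expressed transcript in this tissue. It had 429 reads over the 9 libraries, a mean of 47.7 per library. Its mean level of 2.49 CPM (CPM being the count scaled to library size, with TMM normalisation) lay at the 23.6th percentile of the 22283 transcripts tested. No other transcript had the same counts in every library. A single read was worth between 0.0404 and 0.0940 CPM. The counting error was 13.1% to 19.6% of the mean within groups (CV expected from the read numbers).

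In CTRL animals Mthfs was counted 31, 26 and 24 times in replicates 1 to 3, which gave 1.50, 1.74 and 1.02 CPM. In PILO animals the counts were 50, 76 and 53, or 2.76, 3.07 and 3.10 CPM. In PILO+KD animals they were 95, 42 and 32, or 4.08, 2.09 and 3.01 CPM. Every epileptic animal, on either diet, had a higher level than every control. Mthfs was picked for higher levels in both groups, and the share of all transcripts with this joint pattern was not computed. Taken singly, PILO lay wholly above CTRL for 13.2% of the transcripts tested and PILO+KD for 4.65%. Among the epileptic animals the highest level (replicate 1) and the lowest (replicate 2) were both found on the ketogenic diet.

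**Figure D1:**
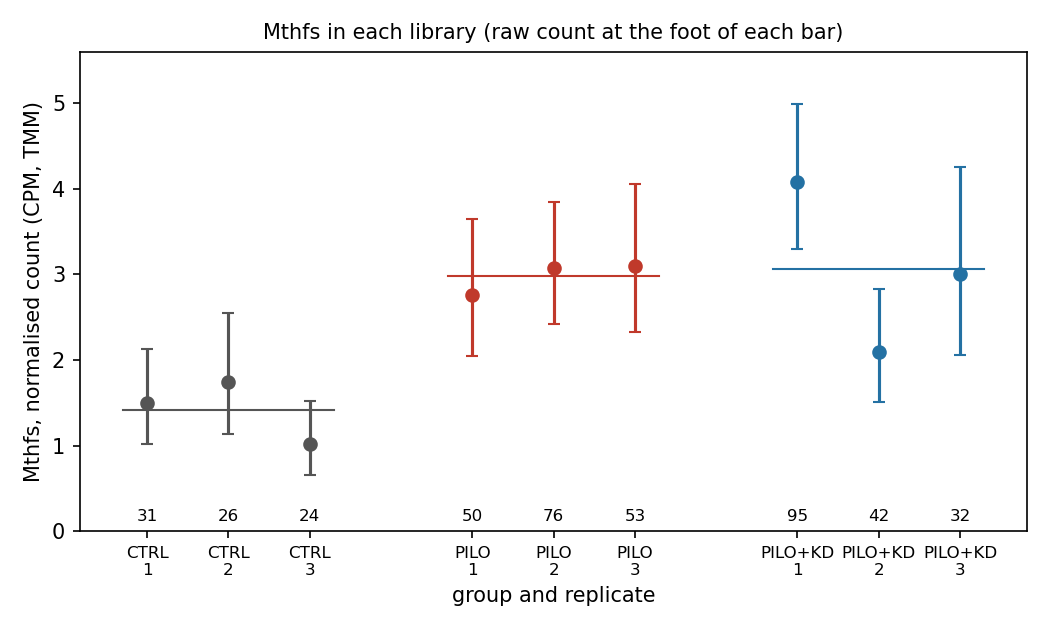
Level of Mthfs (CPM, TMM-normalised) in each of the 9 libraries, by group and replicate. Bars are exact Poisson 95% intervals of the count, horizontal lines are group means, and numbers are raw counts. The CTRL points lie between 1.02 and 1.74 CPM, the PILO points close together between 2.76 and 3.10, and the PILO+KD points spread from 2.09 to 4.08.

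The group means were 1.42 ± 0.366 CPM in CTRL, 2.98 ± 0.187 CPM in PILO and 3.06 ± 0.992 CPM in PILO+KD (SD, n = 3 each). The order of these means was thus CTRL, PILO, PILO+KD, and the last pair differed by far less than the spread within PILO+KD. By median the last pair changed places, with 3.07 CPM in PILO and 3.01 CPM in PILO+KD. Pooled over its libraries, CTRL had 81 reads of Mthfs at 1.37 CPM (95% Poisson interval 1.09 to 1.70). PILO had 179 at 2.99 CPM (2.56 to 3.46), and PILO+KD had 169 at 3.13 CPM (2.67 to 3.64). These intervals cover counting error only. Those of PILO and PILO+KD overlap broadly, and neither reaches that of CTRL.

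Single libraries were less sharply placed than their groups. When the 9 libraries were put in order of level, the Poisson interval of each overlapped that of the next, also across the step from CTRL replicate 2 (1.74 CPM, 1.14 to 2.55) to PILO+KD replicate 2 (2.09 CPM, 1.51 to 2.83). This step corresponds to 42 reads in place of the 34.9 that the level of CTRL replicate 2 would have given. At this depth the level of PILO+KD replicate 2 could not be told from that of the control with the highest level. The interval of PILO+KD replicate 1 (3.30 to 4.98 CPM) lay above those of all 3 CTRL libraries and of PILO+KD replicate 2.

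The spread between the 3 libraries of a group is given beside counting error. The variance between libraries was 0.229 of that expected from counting alone in PILO, 1.73 times it in CTRL and 5.26 times it in PILO+KD. On the log2 scale the SD was 0.09 in PILO, 0.37 in CTRL and 0.46 in PILO+KD. Among 1107 transcripts of like level (mean CPM within 0.25 log2 units), 3.34% had a smaller SD than Mthfs in PILO, 61.0% in CTRL and 69.1% in PILO+KD. The PILO libraries thus lay closer together than counting alone would scatter them on average. Scaled by library totals alone, the PILO libraries lay further apart, from 2.57 to 3.16 CPM. With 3 libraries each the difference in spread was not tested.

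PILO was compared with CTRL to describe Mthfs in chronic epilepsy on a standard diet. Its fitted log2 fold change was 1.08 (SE 0.32, 95% interval 0.38 to 1.78), a level 2.12 times that of the controls. The lowest PILO library (2.76 CPM) exceeded the highest CTRL library (1.74 CPM) by 1.02 CPM. A gap of this kind, with all 3 PILO above all 3 CTRL libraries, was found for 13.2% of the transcripts tested, and since Mthfs was picked on this contrast nothing is read from it. The quasi-likelihood test of edgeR called 22 of 22283 transcripts higher in PILO (0.0987%) at an adjusted p under 0.05, and Mthfs was not among them. The number of calls depended strongly on the tool. In either direction the quasi-likelihood test called 29 transcripts, the edgeR exact test 689 (3.09%), DESeq2 752 of the 19680 it adjusted (3.82%) and limma with library quality weights 1878 (8.43%). Mthfs was called by limma and not by the other tools, and since it was picked on this contrast neither outcome is read as a test. In bulk tissue, more RNA per cell and more cells of a type that makes it cannot be told apart.

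PILO+KD was compared with CTRL to describe Mthfs in epileptic animals on the ketogenic diet, with the same CTRL libraries. Its log2 fold change was 1.12 (SE 0.32, 95% interval 0.42 to 1.83), a level 2.18 times that of the controls. The lowest PILO+KD library exceeded the highest CTRL library by 0.353 CPM, so that the separation was narrower than in PILO although the mean difference was as large. All 3 PILO+KD libraries lay above all 3 CTRL libraries for 4.65% of the transcripts tested. No transcript was called higher (0.00%) by the edgeR quasi-likelihood test at an adjusted p under 0.05, while 803 had an unadjusted p under 0.05 in either direction. The edgeR exact test called 37 transcripts in this contrast (0.166%), DESeq2 28 (0.126%) and limma 8 (0.0359%), and Mthfs was not among them with any of these tools.

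PILO+KD was compared with PILO to describe Mthfs under both diets within epileptic rats. Mthfs was chosen for a like level in these groups, so a value near 0 was fixed by the choice and is no evidence on the diet. The log2 fold change was 0.04 (SE 0.31), and its 95% interval ran from -0.63 to 0.71, which spans levels from 0.647 to 1.64 times that of PILO. In 4 of the 9 pairs of a PILO+KD and a PILO animal the PILO+KD animal was higher. Differences within this interval are not excluded, and it does not show that the levels were equal.

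The sign of this difference rested on single animals. Without PILO+KD replicate 1 the log2 fold change of PILO+KD against PILO was -0.24, without PILO+KD replicate 2 it was 0.26, and without PILO replicate 1 it was -0.01. The differences from CTRL stayed above 0 whichever library was left out. They ran from 0.88 (without CTRL replicate 3) to 1.24 (without CTRL replicate 2) in PILO, and from 0.84 (without PILO+KD replicate 1) to 1.34 (without PILO+KD replicate 2) in PILO+KD. Mthfs was picked as higher than CTRL in both groups, and all their libraries lay above all CTRL libraries. The sign of these differences was thus largely fixed beforehand, and nothing is read from it.

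**Figure D2:**
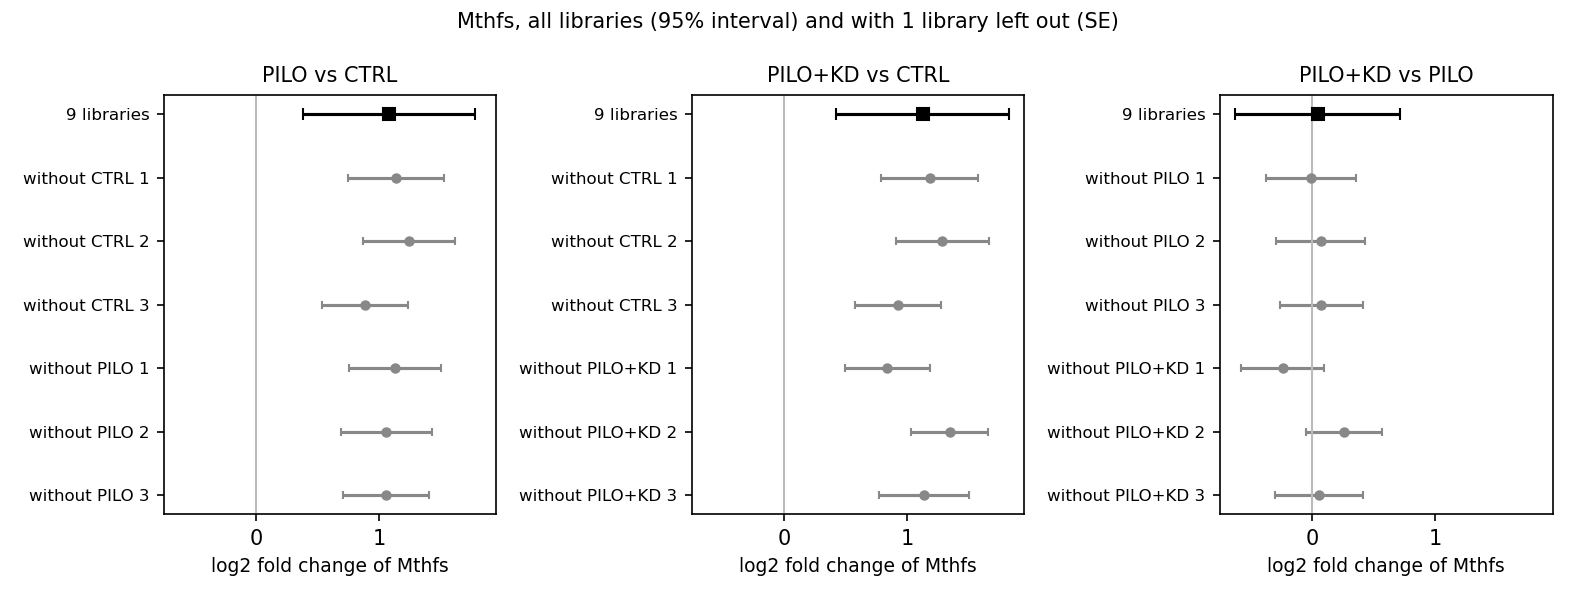
Log2 fold change of Mthfs in the 3 comparisons, from all 9 libraries (black squares, bars are 95% intervals) and with 1 library left out (grey points, bars are SE). The differences from CTRL stay between 0.84 and 1.34 when a library is left out, and the difference between the diets lies on both sides of 0, from -0.24 to 0.26. Mthfs was picked as higher than CTRL in both groups, so nothing is read from the sign of those differences.

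Depth and composition differed between libraries. Total counts ran from 9904067 in PILO+KD replicate 3, which was also the single library on flow cell FC095, to 24092617 in PILO replicate 2. PILO replicate 3 stood apart in composition, with 26.0% of its reads in its 10 most abundant transcripts (12.1% to 19.3% in the other libraries) and a mean Spearman correlation with the others of 0.940 (0.970 to 0.981). Mthfs depended little on either library. Its log2 fold change was 1.06 in PILO without PILO replicate 3 and 1.14 in PILO+KD without PILO+KD replicate 3, which is also the value within flow cell FC094. With both left out the values were 1.06 and 1.14, and that between the diets was 0.08.

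Gfap (ENSRNOT00000034401), the intermediate filament of astrocytes and a sign of reactive gliosis, was the astrocyte marker that could be read. It lay at 526 to 770 CPM in CTRL, 1543 to 2853 CPM in PILO and 834 to 2632 CPM in PILO+KD. Both epileptic groups lay above CTRL without overlap, as 13.2% (PILO) and 4.65% (PILO+KD) of all transcripts did, and the edgeR quasi-likelihood test called Gfap in neither contrast. This test made the fewest calls in PILO against CTRL, 29 in either direction against 689 to 1878 by the other tools. Whether those tools called Gfap is not given here, and the study's own edgeR analysis listed Gfap as higher in PILO. Gfap was also among the genes that the study chose on the PILO and CTRL libraries. In PILO+KD it was highest in replicate 1 and lowest in replicate 2, as Mthfs was. In CTRL, by contrast, Gfap was lowest in replicate 2, where Mthfs was highest, though the Poisson intervals of Mthfs overlap among the CTRL libraries. In PILO it was lowest in replicate 3, while the Mthfs levels there were too close to order, with replicate 3 the highest under TMM (3.10 CPM) and the lowest when scaled by library totals alone (2.57 CPM). The part of cell composition in the level of Mthfs was not tested. Other markers of cell types and the other enzymes of folate metabolism were not analysed here, since the transcript identifiers could not be paired with their symbols.

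The study's other 9 epigenetic genes give the setting of Mthfs. They were also picked on the PILO and CTRL libraries, so their separation in that contrast is no finding. Against CTRL, 3 of them were higher in PILO and 6 lower, with log2 fold changes from -0.99 to 1.43 (median -0.88, median of all transcripts 0.01), and the calls again depended on the tool. The edgeR quasi-likelihood test called none of the 9 after adjustment over all transcripts, while the edgeR exact test, DESeq2 and limma each called the same 6 (Gadd45a, Apobec1, Eif2c1, Ncoa1, Ezh1 and Zmynd8). Over all transcripts these tools called 3.09%, 3.82% and 8.43%, and since the 9 genes were chosen on this contrast nothing is read from their count. In PILO+KD the same 3 were higher and 6 lower, from -0.40 to 1.06 (median -0.20, median of all transcripts 0.01), and none of the 9 was called by the edgeR quasi-likelihood test, which called no transcript at all in this contrast, or by the edgeR exact test, DESeq2 or limma.

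The genes above the controls can be set beside Mthfs one by one. Gadd45a, a stress-induced factor in DNA repair and demethylation, had 3.80 ± 0.944 CPM in CTRL, 10.3 ± 1.51 in PILO and 8.10 ± 3.91 in PILO+KD. Apobec1, a cytidine deaminase, had 2.26 ± 0.380, 5.40 ± 1.70 and 3.16 ± 0.252 CPM. Cbx5, which encodes heterochromatin protein HP1 alpha, had 24.8 ± 3.05, 39.7 ± 6.97 and 33.4 ± 6.38 CPM. Each of these means lay lower in PILO+KD than in PILO, with log2 fold changes of -0.37 for Gadd45a (95% interval -1.08 to 0.35), -0.77 for Apobec1 (-1.37 to -0.17) and -0.25 for Cbx5 (-0.69 to 0.19). None of the 3 was called in this contrast by any of the 4 tests. The values rest on the PILO libraries on which the genes were chosen, and the value of Mthfs (0.04) on a choice for like levels, so nothing is read from the contrast between them.

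The 6 genes below the controls were Eif2c1 (argonaute of the microRNA pathway), the coactivator Ncoa1, the histone methyltransferases Ezh1 and Mll1, the chromatin reader Zmynd8 and the corepressor Nrip1. Their log2 fold changes in PILO+KD against PILO ran from 0.47 for Mll1 to 0.78 for Eif2c1, toward the CTRL level. These shifts rest on the same PILO libraries that were used to choose the genes, and none of the 6 was called by any of the 4 tests. Over all transcripts the edgeR quasi-likelihood test called none in this contrast (0.00%, with 1602 at an unadjusted p under 0.05), limma none, the edgeR exact test 27 (0.121%) and DESeq2 22 (0.0988%).

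**Figure D3:**
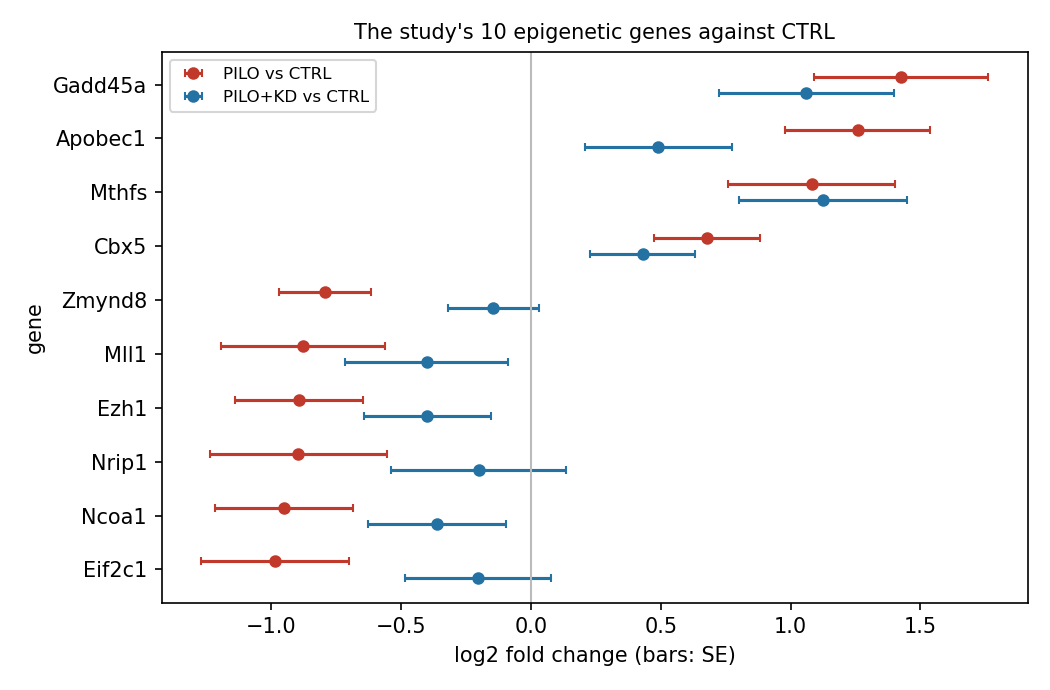
Log2 fold changes against CTRL of the study's 10 epigenetic genes in PILO (red) and PILO+KD (blue), with SE bars. Both contrasts share the CTRL libraries. The blue point lies nearer to 0 than the red one for 9 genes, while for Mthfs the points lie at 1.08 and 1.12. The 9 genes were chosen on PILO against CTRL and Mthfs for like values in both contrasts, so nothing is read from this pattern.

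The transcripts most like Mthfs were sought among 19514 with a mean of at least 20 counts. Likeness was measured as the root mean square difference of log2 CPM over the 9 libraries, each transcript being centred on its own mean, so that a smaller value is closer. Mthfs itself deviated from its mean by 0.57 on this scale, and the median distance of all transcripts from it was 0.64. The closest was ENSRNOT00000035400 at 0.18, with 14.7 to 17.8 CPM in CTRL, 26.9 to 39.5 in PILO and 23.9 to 42.0 in PILO+KD. ENSRNOT00000059639 followed at 0.22, with 0.676 to 0.870, 1.27 to 1.58 and 0.996 to 1.84 CPM. In both, PILO+KD replicate 1 was the highest library and PILO+KD replicate 2 the lowest of the epileptic ones, which is the order seen for Mthfs. Both were chosen for closeness over these same libraries. The shared order was thus largely fixed by the choice, and nothing is read from it.

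Among the study's other 24 genes the closest to Mthfs were Cbx5 (0.34, place 125 of 19514), Npc2 (0.35, place 164) and Apobec1 (0.42, place 598). Npc2, a cholesterol carrier of the lysosome, had 85.2 ± 7.58 CPM in CTRL, 194 ± 25.6 in PILO and 136 ± 16.7 in PILO+KD. In these 3 genes the highest PILO+KD library lay below the highest PILO library, whereas for Mthfs it lay above, as it did for Gadd45a (12.2 against 11.9 CPM). These places describe likeness over 9 libraries that were also used to choose the genes, and they changed with the measure. Of the 10 closest transcripts 3 remained when Pearson's correlation was used in place of the distance, 5 without PILO replicate 3 and 3 without PILO+KD replicate 3.

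**Figure D4:**
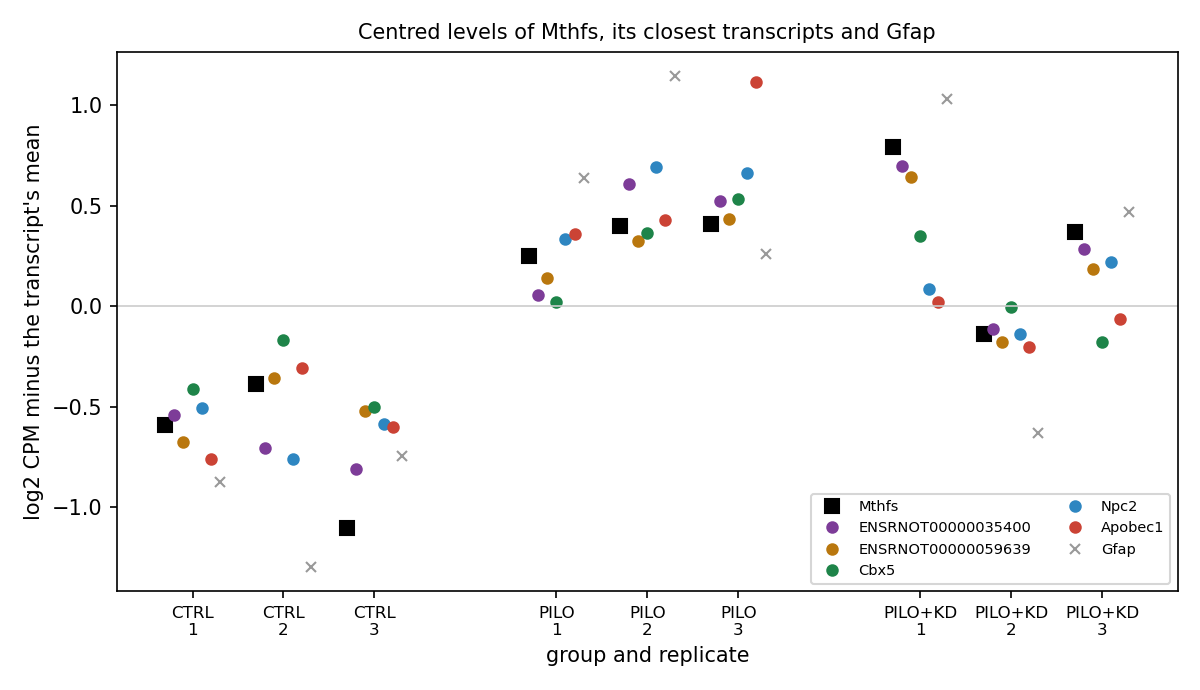
Log2 CPM minus each transcript's mean over the 9 libraries, for Mthfs (black squares), its 2 closest transcripts, the 3 closest of the study's genes and Gfap (grey crosses). Mthfs runs from -1.10 in CTRL replicate 3 to 0.79 in PILO+KD replicate 1, and its 2 closest transcripts stay near it in the PILO+KD libraries. They were chosen for closeness over these libraries, so nothing is read from this.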

How the data were processed

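Single reads of 36 bp were aligned by the authors to the rat genome RN4 with BWA 0.5.9 and counted per Ensembl 66 transcript with their own script. The deposited values are raw counts, unfiltered. How reads shared between transcripts, or their strand, were handled is not given in the sources used here. The Mthfs identifier was paired with its symbol by the study, and no identifier matched the RefSeq table (GRCr8). Groups came from the labels. Replicate numbers follow deposition and pair no animals.

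The filter kept transcripts with 55 or more counts summed over all libraries (30th centile). One edgeR 4.0.16 quasi-likelihood fit (R 4.3.3, robust, TMM) held all 9 libraries and 3 group means, with Benjamini-Hochberg adjustment over 22283 transcripts and a threshold of 0.05. The SE was derived from the log2 fold change and its F statistic. Intervals are at 95%. A prior count of 2 was used for log2 CPM. The quasi-likelihood fit was tested on simulated data, where it recovered 127 of 200 changed transcripts and made 13 false calls. Alternatives used DESeq2 1.42.0 and limma 3.58.1. Named transcripts were Mthfs, the study's 10 epigenetic genes, and by likeness the 2 closest transcripts and 3 closest study genes, while Gfap was named as a marker. The gene and these lists were chosen with earlier results of these data known.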

Additional observations from a re-analysis of the deposited data

How the results depend on the processing

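The log2 fold change of Mthfs was recomputed under 17 alternatives for PILO against CTRL and 18 for each of the other comparisons, covering scaling, filter on low counts, tool, prior count, libraries fitted and libraries left out. Among the 18, keeping only flow cell FC094 is the same fit as leaving out PILO+KD replicate 3, and both are counted. The alternative that left out PILO replicate 3 and PILO+KD replicate 3 together was chosen after seeing the data. Every value stayed within 1 SD of the libraries (0.35 log2) of the value reported. With 1 library left out the differences ran from 0.88 to 1.24 (PILO against CTRL), 0.84 to 1.34 (PILO+KD against CTRL) and -0.24 to 0.26 (PILO+KD against PILO). Under the other alternatives they ran from 0.89 to 1.10, 1.06 to 1.15 and -0.01 to 0.17. The difference between the diets was below 0 under 3 of its 18 alternatives. When counts were scaled by library totals alone, the median over all transcripts moved to 0.11 in PILO+KD against PILO, where Mthfs stood at 0.16. All 3 CTRL libraries stayed below all epileptic ones under each of the 4 scalings. Since Mthfs was picked for higher levels in both epileptic groups, this describes the scalings and is no further evidence.

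The number of transcripts called higher in PILO by the edgeR quasi-likelihood test was 22, and it was 7 with library totals only and 60 without a filter on low counts. By tool the calls in either direction ran from 29 (edgeR quasi-likelihood) through 689 (edgeR exact test) and 752 (DESeq2) to 1878 (limma), and Mthfs was called by limma alone. The cause was not tested. Depth limits these results, since Mthfs had 24 to 95 reads per library and pooled intervals cover counting error only.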
